A study of Mus musculus with 5 samples.

Results

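The nuclear genes for subunits of the mitochondrial respiratory chain and ATP synthase were described in 5 arrays of mouse embryonic stem cells (ESCs) and of ESC-like cells regrown from teratomas. Members were all genes whose symbols start with Ndufa, Ndufb, Ndufc, Ndufs, Ndufv, Uqcr, Cox4 to Cox8 or Atp5, plus Sdha, Sdhb, Sdhc and Sdhd, without pseudogenes and assembly factors. The rule uses symbols alone. Of the 19938 genes named by a probe set with exactly 1 symbol, 82 were members: 34 of complex I, 4 of complex II, 8 of complex III, 19 of complex IV and 17 of complex V. Where a gene had several probe sets, the brightest over the 5 arrays was taken. Ndufb1, Ndufb4 and Cox7c had no such probe set under their own symbol and were not analysed here.

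The starting point was a B6CBAF1 ESC line, the parental ESCs (1 array). ESC-like cells came from teratomas collected 5 weeks after subcutaneous injection of these ESCs alone into B6CBAF1 mice (homologous, 1 array) or B6D2F1 mice (heterologous, 1 array), or of 4 parts ESCs and 1 part B6D2F1 fetal fibroblasts (MFF) into B6D2F1 mice (co-injection, 2 arrays, batch 1 and batch 2). All cells were kept on inactivated ICR MFF feeders with leukemia inhibitory factor (LIF), and the methods give a higher LIF concentration for cells from teratomas. The labels do not say whether the co-injection arrays came from separate teratomas or cultures, so their spread may be technical. The platform was the Affymetrix Mouse Gene 1.0 ST array, which reads each gene with a set of probes. Values are log2 expression values, and a log2 difference of 1 is 2-fold. Because every other condition had 1 array, differences are described by their size, set beside the gap between the co-injection arrays. The limma model, whose error rests on that pair alone (1 residual degree of freedom), called 0 members at an adjusted p under 0.05 in each of the 6 comparisons, with smallest adjusted p-values of members between 0.109 and 0.327. All comparisons with parental ESCs share the same parental array.

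The respiratory chain passes electrons from NADH (complex I) and succinate (complex II) through ubiquinone to complex III, by cytochrome c to complex IV, and finally to oxygen. Proton pumping by complexes I, III and IV drives ATP synthesis by complex V, the ATP synthase. Most subunits are encoded in the nucleus and a few in mitochondrial DNA. ESCs in culture are known for a high rate of glycolysis, and several nuclear subunit genes have NRF1 sites in their promoters.

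Sequences upstream of the transcription start are shown for Ndufa1, Ndufa11 and Uqcr10, which are among the members furthest below parental ESCs, and for Atp5k, another promoter with the NRF1 motif. They are from RefSeq (GRCm38.p6), 250 bases ending just before the start, on the minus strand for Ndufa1 (chrX:37191239-37191488), Uqcr10 (chr11:4704345-4704594) and Atp5k (chr5:108434400-108434649) and on the plus strand for Ndufa11 (chr17:56717512-56717761). Capitals mark GCATGCGC, a core of the NRF1 motif, which is found on both strands in overlap and so spans 10 bases. The first capital lies 60 bases before the start in Ndufa11 and 50 bases before it in Atp5k, and these letters were not in the stretches of Ndufa1 and Uqcr10.
Ndufa1: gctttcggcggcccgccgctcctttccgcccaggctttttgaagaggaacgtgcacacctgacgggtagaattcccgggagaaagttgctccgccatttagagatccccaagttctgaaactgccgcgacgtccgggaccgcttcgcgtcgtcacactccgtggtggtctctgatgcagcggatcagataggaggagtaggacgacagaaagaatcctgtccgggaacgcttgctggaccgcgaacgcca
Ndufa11: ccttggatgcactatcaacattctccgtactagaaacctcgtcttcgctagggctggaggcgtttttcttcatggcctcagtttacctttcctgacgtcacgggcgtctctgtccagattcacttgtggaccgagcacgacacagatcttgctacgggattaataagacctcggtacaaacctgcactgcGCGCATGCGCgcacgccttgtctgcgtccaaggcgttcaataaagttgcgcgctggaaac
Uqcr10: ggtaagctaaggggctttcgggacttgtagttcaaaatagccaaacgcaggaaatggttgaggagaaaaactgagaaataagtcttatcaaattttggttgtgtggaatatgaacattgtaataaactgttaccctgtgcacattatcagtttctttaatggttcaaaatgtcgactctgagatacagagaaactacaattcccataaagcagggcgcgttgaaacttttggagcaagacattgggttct
Atp5k: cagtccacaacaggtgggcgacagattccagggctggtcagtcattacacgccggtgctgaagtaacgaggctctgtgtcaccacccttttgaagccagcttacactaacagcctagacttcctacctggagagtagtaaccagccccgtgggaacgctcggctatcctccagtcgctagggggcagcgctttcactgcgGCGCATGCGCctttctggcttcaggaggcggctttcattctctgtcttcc

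Respiratory chain genes differed little between parental ESCs and any ESC-like cells. None of the 82 members differed more than 2-fold from parental ESCs after homologous injection, where 3.05% of all named genes did, after heterologous injection (5.93%) or after co-injection (2.09%). At 1.5-fold, 3 members passed after homologous injection (9.51% of named genes), 5 after heterologous injection (13.2%) and 2 after co-injection (6.91%). Members are mostly high on these arrays: the median of their mean values was 10.77 against 7.95 for all named genes, and 80 of 82 were above the median of all values on the table (7.49). Among the 11600 named genes above that value, 4.16%, 7.70% and 2.84% passed 2-fold in the same comparisons. The median size of a member's difference was 0.119 (homologous), 0.128 (heterologous) and 0.0995 (co-injection). For named genes above the median value the median sizes were 0.188, 0.204 and 0.159. The gap between the co-injection arrays had a median size of 0.0520 over members and at most 0.311.

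**Figure D1:**
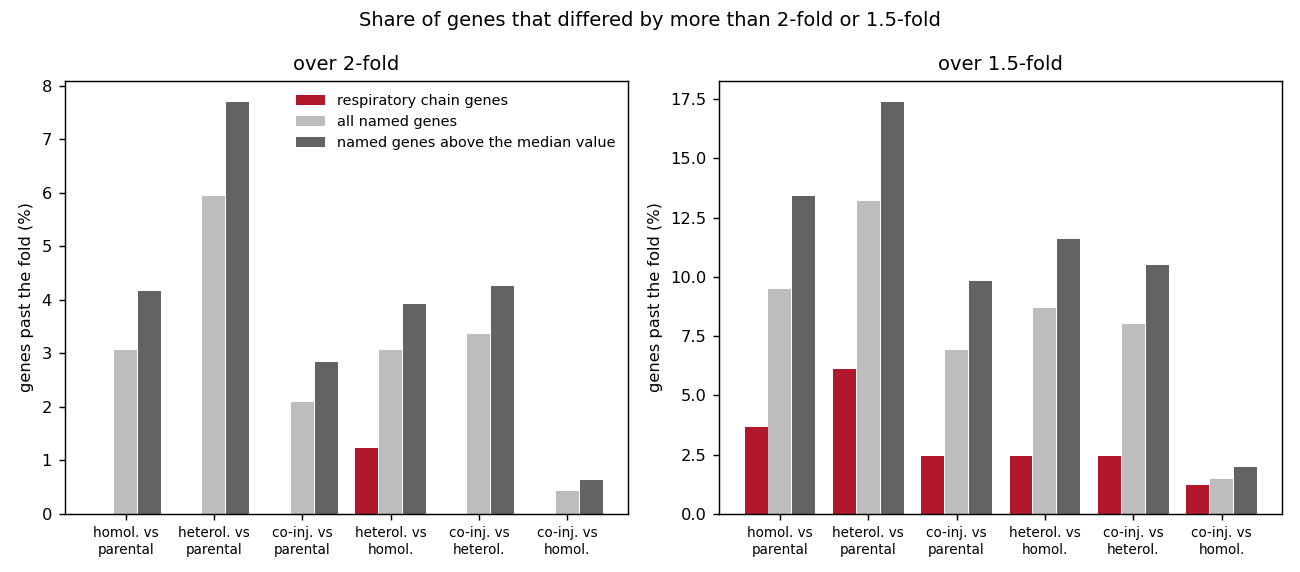
Share of genes (percent, y axis) past the fold threshold in each comparison, for the 82 respiratory chain genes, all named genes and named genes above the median value, at 2-fold (left) and 1.5-fold (right). No member passed 2-fold against parental ESCs, and 1 did between the heterologous and homologous arrays.

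The median log2 difference of the members was -0.04 after homologous injection, -0.11 after heterologous injection and -0.01 after co-injection (SD of the 2 array medians 0.002). All named genes had medians of -0.01, -0.04 and 0.04. In all 4 ESC-like arrays, 31 members (37.8%) lay below parental ESCs, against 23.6% of named genes and 29.6% of those above the median value. In all 4 arrays, 15 members (18.3%) lay above parental ESCs, against 21.9% of named genes and 25.6% of those above the median value. These shares rest on 1 parental array.

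**Figure D2:**
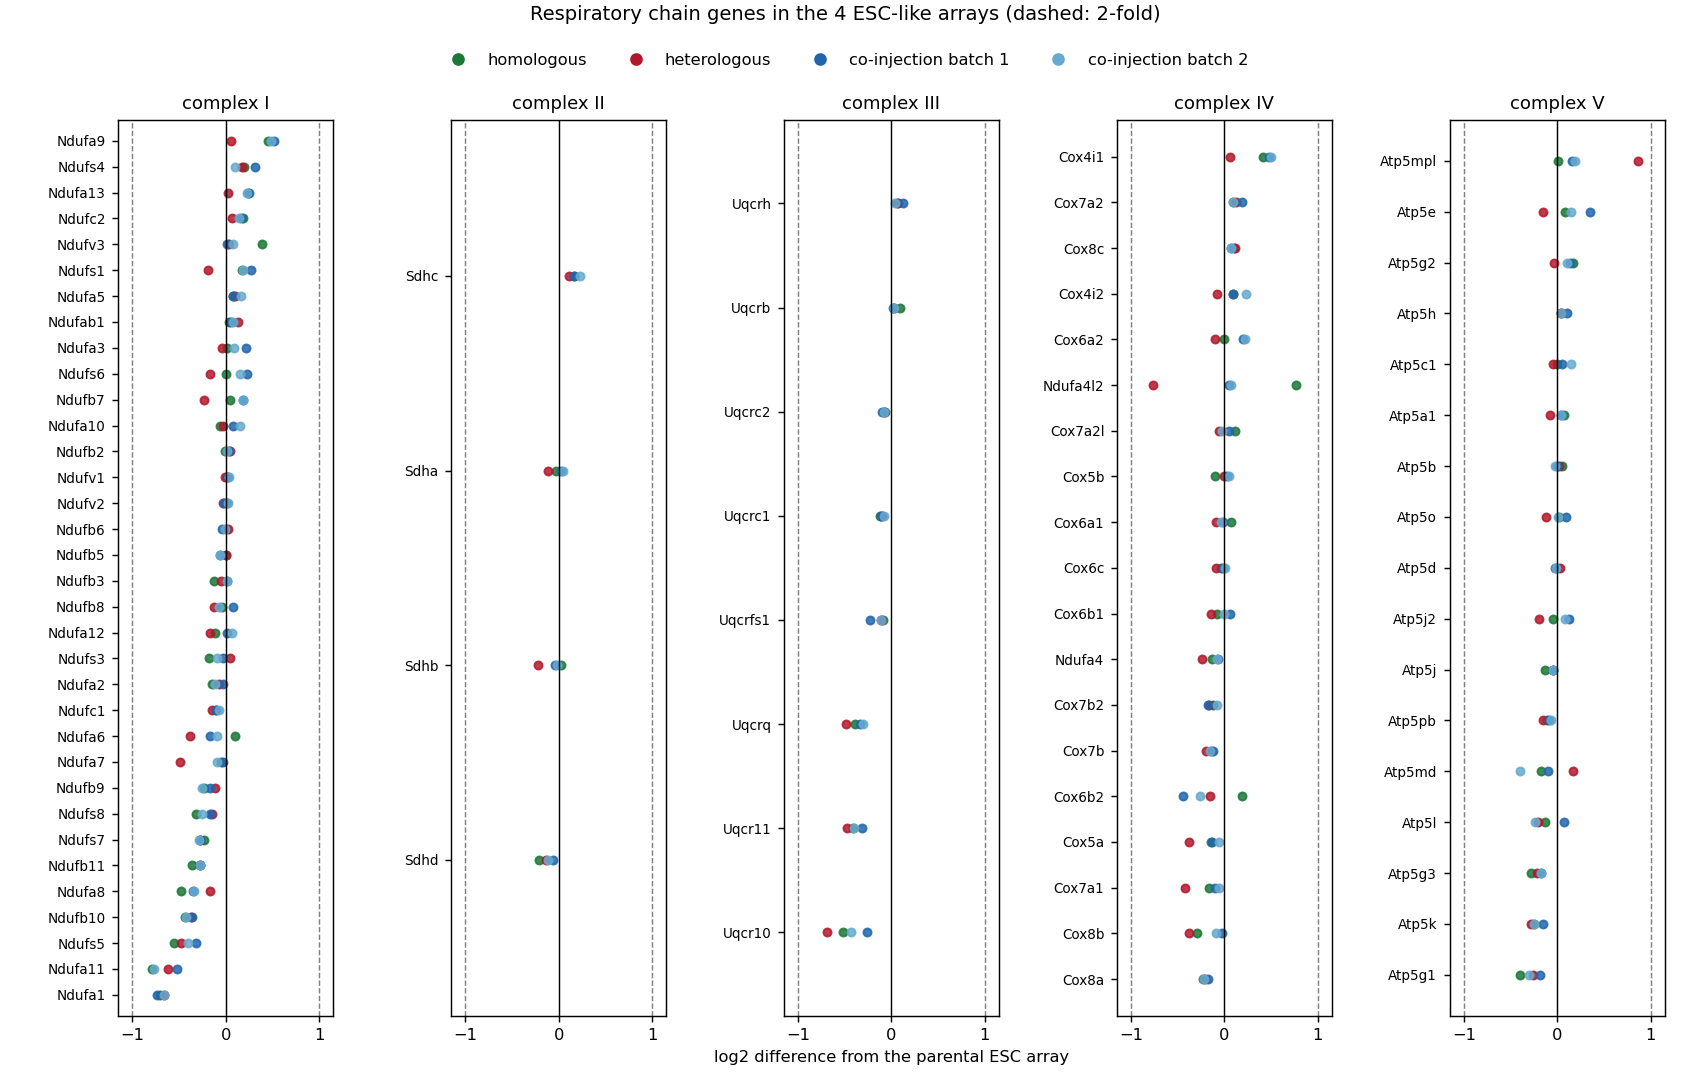
Log2 difference from the parental ESC array (x axis) for each of the 82 members (y axis), by complex, in each of the 4 ESC-like arrays. Most members lie close to 0, and no point passes a difference of 1 in size.

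Complex I had 12 members below and 7 above parental ESCs in all 4 arrays. Its median differences were -0.02 (homologous), -0.09 (heterologous) and 0.00 (co-injection). Of the 6 core subunits measured, which carry the flavin and iron-sulphur clusters and their binding sites, Ndufv1 and Ndufv2 were nearly level: Ndufv1 was 10.88 in parental ESCs against 10.89 (homologous), 10.88 (heterologous), 10.90 and 10.91 (co-injection). Ndufs7, a core subunit with the last iron-sulphur cluster, was 13.06 against 12.83, 12.78, 12.78 and 12.78 in that order, lower in all 4. Ndufs8, another iron-sulphur subunit, was 11.43 against 11.11, 11.28, 11.26 and 11.18, also lower in all 4. Ndufs3 differed by -0.18, 0.04 and -0.06 and Ndufs1 by 0.18, -0.19 and 0.23, each in both directions.

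The lowest differences were in accessory subunits, which surround the core and are needed for assembly or stability. Complex I had 28 accessory and 6 core members here, and its highest differences were in accessory subunits as well. Ndufa1, an accessory subunit of the membrane arm, was 8.93 in parental ESCs, 8.22 after homologous injection, 8.27 after heterologous injection, and 8.20 and 8.27 after co-injection. It was lower in all 4 ESC-like arrays, by 0.66 to 0.73, and the ESC-like arrays differed among themselves by less than 0.1. Ndufa11, another membrane arm subunit, was 11.24 in parental ESCs, 10.45 and 10.62 after homologous and heterologous injection, and 10.71 and 10.47 after co-injection. The co-injection gap of 0.24 was among the 3 largest of all members, and smaller than any difference from parental ESCs (-0.53 to -0.79). Ndufs5, an accessory subunit on the intermembrane side, was 9.13 against 8.58, 8.65, 8.81 and 8.73, again lower in all 4. Ndufb10, an accessory subunit of the membrane arm, was 8.53 against 8.09, 8.15, 8.17 and 8.10, also lower in all 4.

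Ndufa9, which lies at the junction of the complex I arms, was among the highest differences. It was 10.52 in parental ESCs, 10.97 after homologous injection, 10.58 after heterologous injection, and 11.04 and 11.00 after co-injection. The heterologous array stood with parental ESCs and the other 3 were higher by 0.45 to 0.52. Ndufv3, a flavoprotein-associated subunit, was 9.50 before injection and 9.90 in the homologous array, against 9.54, 9.52 and 9.59 in the others, so only the homologous array was high. Ndufa7 was 10.74 in parental ESCs, 10.68 (homologous), 10.24 (heterologous), and 10.71 and 10.65 (co-injection), with the heterologous array low. Ndufa6 was 9.13 in parental ESCs, 9.22 (homologous), 8.75 (heterologous), and 8.95 and 9.03 (co-injection), and here too the heterologous array was lowest. Ndufa8 was 10.87 against 10.39, 10.71, 10.52 and 10.53, lower in all 4 and lowest in the homologous array. Ndufs4, an accessory subunit of the matrix arm, was 11.51 against 11.71, 11.68, 11.83 and 11.62, and Ndufc2, of the membrane arm, was 12.26 against 12.44, 12.33, 12.42 and 12.40, both higher in all 4.

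Complex II, which also belongs to the tricarboxylic acid (TCA) cycle, had median differences of 0.00, -0.12 and 0.005. Sdha, the flavoprotein, was 10.83 against 10.80, 10.72, 10.85 and 10.88 in the same order. Sdhb, the iron-sulphur subunit, was 10.53 against 10.55, 10.31, 10.49 and 10.52, lowest in the heterologous array. Sdhc, a membrane anchor, was 11.47 against 11.64, 11.57, 11.63 and 11.70, higher in all 4. Sdhd, the other anchor, was 10.92 against 10.71, 10.79, 10.86 and 10.81, lower in all 4.

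Complex III had the lowest median in the homologous and co-injection comparisons, -0.11 and -0.13, with -0.11 in the heterologous comparison. It had 6 of 8 members below parental ESCs in all 4 arrays and the other two, Uqcrb (0.09, 0.03 and 0.02) and Uqcrh (0.06, 0.07 and 0.08), above. Of its 5 accessory subunits, which include Uqcrb and Uqcrh, Uqcr10, Uqcr11 and Uqcrq lay further from parental ESCs than the catalytic and core proteins. Uqcr10 was 10.56 in parental ESCs, 10.04 (homologous), 9.87 (heterologous), and 10.30 and 10.12 (co-injection). Uqcr11 was 10.89 against 10.48, 10.41, 10.57 and 10.48, and Uqcrq was 10.39 against 10.00, 9.90, 10.05 and 10.08. All 3 were lower in every ESC-like array. By contrast the Rieske iron-sulphur protein Uqcrfs1 (-0.09, -0.12 and -0.17) and the core proteins Uqcrc1 (-0.12, -0.10 and -0.10) and Uqcrc2 (-0.07, -0.09 and -0.09) had smaller differences in the same 3 comparisons.

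In complex IV, cytochrome c oxidase, the median differences were -0.04, -0.14 and -0.01. With tissue-restricted forms left out, the homologous median was -0.08 and the heterologous median -0.09. Without batch 1 or without batch 2 the co-injection median was -0.02 or -0.01. Cox4i1, the ubiquitous form of subunit 4, was 10.89 in parental ESCs, 11.30 after homologous injection, 10.94 after heterologous injection, and 11.36 and 11.39 after co-injection. As with Ndufa9, the heterologous array stood with parental ESCs. Its tissue-restricted paralogue Cox4i2 differed by 0.10, -0.08 and 0.16. Cox5a, a subunit of the matrix side, was 11.05 against 10.90, 10.67, 10.92 and 10.99, lowest in the heterologous array. Cox6c differed by -0.04, -0.09 and -0.01.

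Ndufa4l2, the hypoxia-inducible paralogue of the complex IV subunit Ndufa4, was the only member past 2-fold in any comparison. It was 7.86 in parental ESCs, 8.62 after homologous injection, 7.10 after heterologous injection, and 7.90 and 7.93 after co-injection (SD 0.022, n = 2). The homologous array was highest and the heterologous array lowest, with parental ESCs and the co-injection pair between them. The heterologous array was lower than the homologous array by 1.52 on the log2 scale, 2.88-fold, with the heterologous value itself below the median of all values (7.49). It was 1 of 82 members past 2-fold in that comparison, where 3.06% of named genes passed in either direction and 0.647% in this direction. Ndufa4 itself differed by -0.13, -0.24 and -0.08 from parental ESCs.

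**Figure D3:**
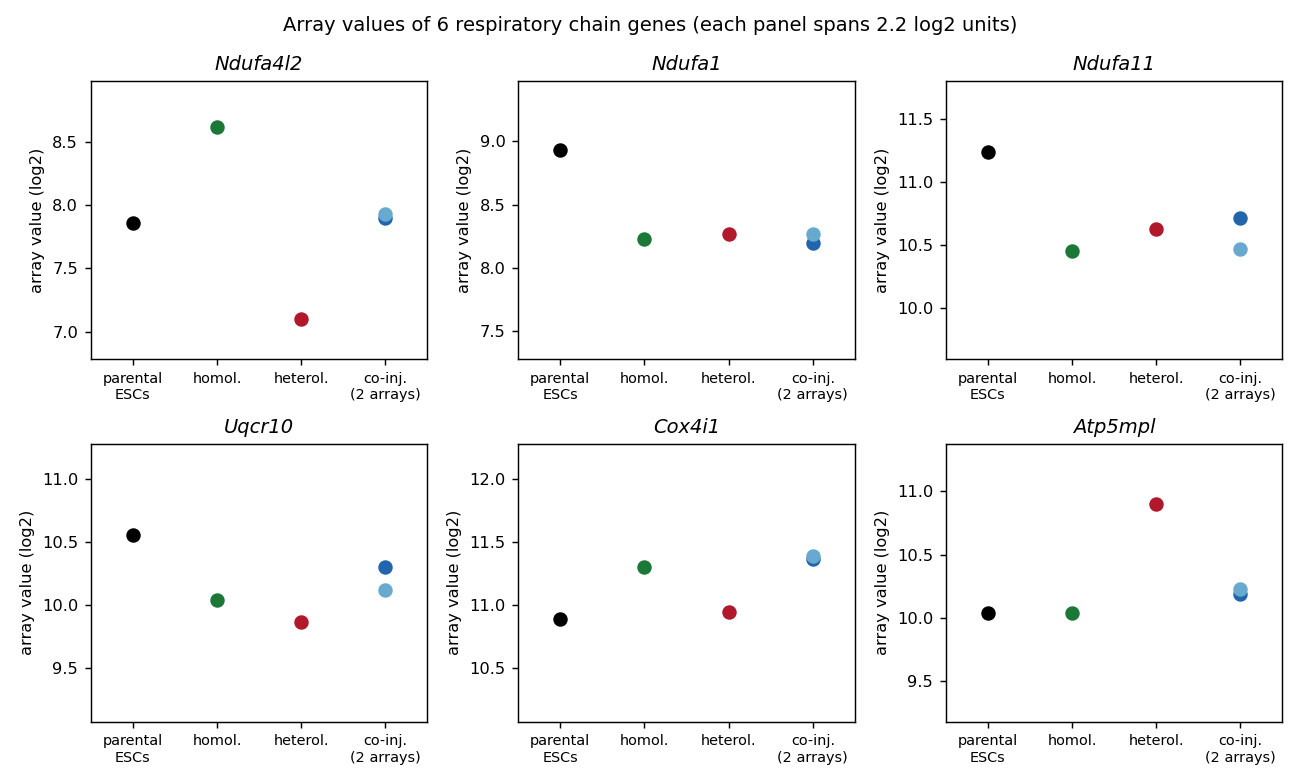
Log2 expression (y axis) in each of the 5 arrays for Ndufa4l2, Ndufa1, Ndufa11, Uqcr10, Cox4i1 and Atp5mpl. Ndufa4l2 is highest in the homologous and lowest in the heterologous array, and Atp5mpl is high in the heterologous array alone.

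Among the other complex IV paralogues, Cox7a2 and Cox8c alone lay above parental ESCs in the heterologous array. The ubiquitous Cox6a1 differed by 0.08, -0.09 and -0.03, and its muscle form Cox6a2 by 0.00, -0.10 and 0.21. Cox6b1 differed by -0.08, -0.14 and 0.03, whereas Cox6b2, known from testis, was 10.21 in parental ESCs, 10.40 (homologous), 10.05 (heterologous), and 9.77 and 9.95 (co-injection), with both co-injection arrays lowest. Cox7a2 differed by 0.10, 0.12 and 0.14, Cox7a2l, a supercomplex factor, by 0.11, -0.06 and 0.02, and the muscle form Cox7a1 by -0.17, -0.42 and -0.08. Cox8a differed by -0.23, -0.21 and -0.19, Cox8b by -0.30, -0.37 and -0.06, and Cox8c by 0.10, 0.12 and 0.07. Cox7b2 and Cox8b were the 2 members not above the median of all values (mean values 5.39 and 6.77), and their differences concern dim probe sets. Ubiquitous Cox7b differed by -0.14, -0.20 and -0.14.

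Complex V had median differences of -0.00, -0.08 and -0.01. Its co-injection median was 0.04 without batch 2 and -0.02 without batch 1, so its sign rests on 1 array. The F1 subunits that form the catalytic head and central stalk stayed close to parental ESCs: Atp5a1 differed by 0.07, -0.08 and 0.04, Atp5b by 0.05, 0.02 and -0.01, and Atp5d by 0.00, 0.03 and -0.02. Atp5e, the smallest F1 subunit, was 9.26 in parental ESCs, 9.34 (homologous), 9.11 (heterologous), and 9.61 and 9.40 (co-injection), with both co-injection arrays highest. The c-ring genes differed among themselves. Atp5g1 was 12.91 in parental ESCs, 12.52 (homologous), 12.65 (heterologous), and 12.72 and 12.61 (co-injection), and Atp5g3 was 12.61 against 12.33, 12.39, 12.44 and 12.43, so both were lower in all 4 arrays. Atp5g2 was 12.61 against 12.78, 12.58, 12.75 and 12.72, with the heterologous array alone below parental ESCs. These 3 genes encode the same mature protein.

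Atp5mpl, a small subunit of the Fo part, was high in 1 array alone. It was 10.03 in parental ESCs, 10.04 after homologous injection, 10.90 after heterologous injection, and 10.19 and 10.23 after co-injection (SD 0.028, n = 2). The heterologous array was higher than parental ESCs by 0.86, the largest difference of any member from parental ESCs. Atp5md, a dimer-related Fo subunit, was 10.83 in parental ESCs, 10.66, 11.01, and 10.74 and 10.44, and its co-injection gap of 0.30 and that of Atp5l (0.31) were the widest of all members.

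In the heterologous against the homologous array, the member median was -0.05 (named genes -0.01) and 2 members passed 1.5-fold (8.67% of named genes), Ndufa4l2 and Atp5mpl. In the heterologous array, 42 members (51.2%) lay below the homologous and both co-injection arrays, against 43.7% of named genes and 41.6% of those above the median value. Above them lay 12 members (14.6%), against 24.1% of named genes and 32.3% of those above the median value. Against the heterologous array, the co-injection mean had 0 members past 2-fold (3.35%) and 2 past 1.5-fold (8.02%), again Ndufa4l2 (0.82) and Atp5mpl (-0.69). Against the homologous array it had 0 past 2-fold (0.426%) and 1 past 1.5-fold (1.47%), Ndufa4l2 (-0.70).

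Some members lay beside genes that differed the same way. For each member the median difference of the 20 nearest genes above the median value on its chromosome was taken. Around Atp5mpl on chromosome 12 this median was 0.72 in the heterologous comparison, and around Cox8c on the same chromosome it was 0.42. Around Ndufa1 on chromosome X it was -0.44, -0.38 and -0.51, and over the whole chromosome X it was -0.44, -0.47 and -0.50. Ndufb11, also on X, differed by -0.36, -0.28 and -0.28. Cox7b, the other member on X, differed by -0.14, -0.20 and -0.14, with local medians of -0.41, -0.15 and -0.50. The chosen probe sets of Ndufb11 and Cox7b stood among genes of other chromosomes. On chromosome 8, whose median was 0.26, 0.04 and 0.23, lay Cox4i1, Ndufa13 (0.24, 0.02 and 0.24) and Ndufb7 (0.04, -0.23 and 0.19), with a local median of 0.11, -0.03 and 0.19 around Cox4i1. By contrast the neighbours of Uqcr10 (-0.03, -0.05 and 0.04), Uqcr11 (0.02, -0.01 and 0.03), Uqcrq (0.02, 0.04 and -0.04) and Ndufs5 (-0.00, -0.01 and -0.01) did not share these genes' lower values. For Ndufa9 the neighbours had 0.14, -0.10 and 0.09, and for Ndufa4l2 0.05, -0.12 and -0.09. The part of neighbouring genes in the members' differences was not tested.

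**Figure D4:**
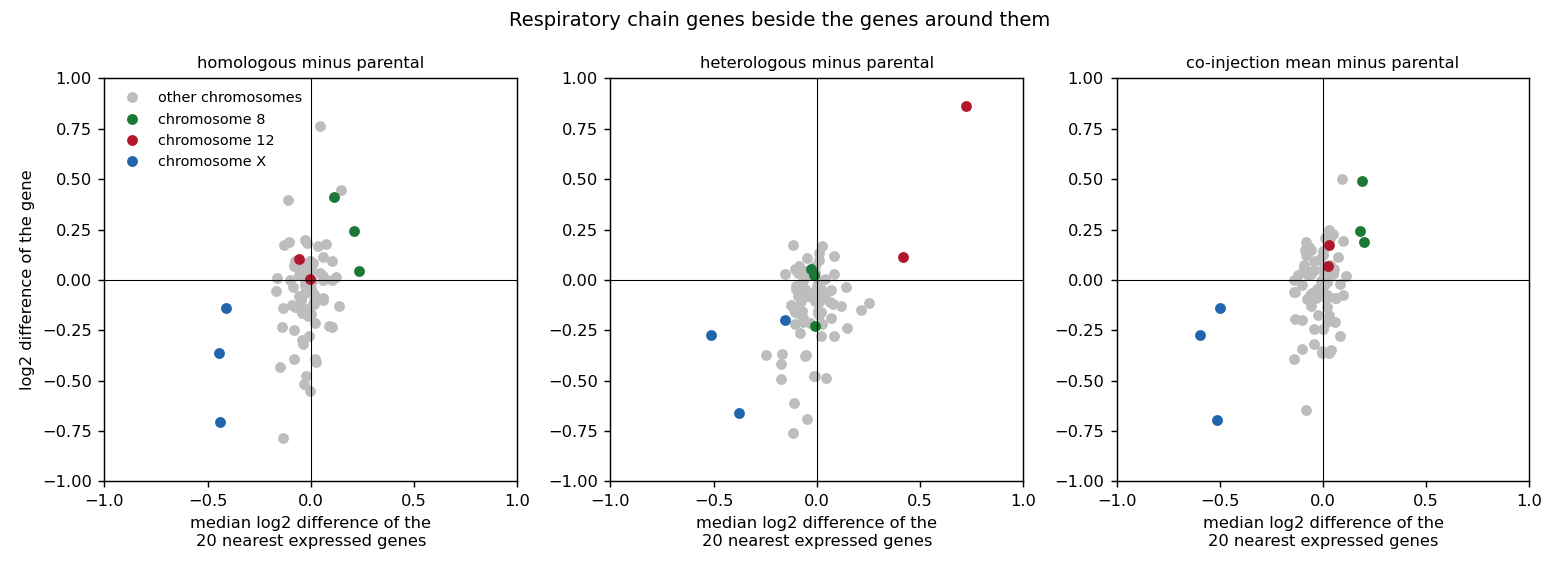
Log2 difference of each member from parental ESCs (y axis) against the median difference of its 20 nearest genes above the median value (called expressed on the x axis), per comparison. Atp5mpl in the heterologous comparison lies near the value of its neighbours, Ndufa1 lies below neighbours that are themselves below 0, and Uqcr10 and Ndufa11 lie below neighbours close to 0.

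Several members were measured by probe sets that may also detect related copies. Probe set numbers follow gene order for 96.8% of named probe sets, judged by 10 neighbouring probe sets. For 9 of 82 members the commonest chromosome of the chosen probe set's neighbours was not the gene's own. These were Atp5g2, Atp5l, Atp5md, Atp5pb, Cox7a2l, Cox7b, Ndufa11, Ndufa3 and Ndufb11. For Ndufa3 the call rests on 5 of 10 neighbours, on chromosome 6. That gene lies near the start of chromosome 7 (promoter window from base 3617123), so its probe set may stand in its own place. The probe set of Ndufa11 that stood among genes of its own chromosome gave -0.49, -0.53 and -0.45, lower than parental ESCs in each comparison but under 1.5-fold. For Cox7b that probe set gave -0.27, -0.37 and -0.26, and for Ndufb11 -0.47, -0.40 and -0.41. For Cox7a2l it gave -0.03, -0.13 and -0.02. The chosen probe set of Cox7a2l lay above parental ESCs in the homologous (0.11) and co-injection (0.02) comparisons.

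The heterologous array also differed in markers of other cells. The 25 fibroblast markers had a median difference of 1.39 in it, with 15 past 2-fold higher, against 0.34 with 2 higher in the homologous array and -0.13 with 1 higher and 2 lower in the co-injection mean. The 12 pluripotency genes had medians of -0.28, -0.52 and -0.22, with 1, 4 and 0 more than 2-fold lower. Of all named genes, 1.45%, 3.98% and 0.647% were more than 2-fold higher in the homologous, heterologous and co-injection comparisons. More than 2-fold lower were 1.6%, 1.95% and 1.44%. Of 10 muscle and 3 erythroid markers 0 passed 2-fold, and of 9 macrophage markers Lyz2 passed in the heterologous (1.16) and Cd68 in the homologous array (-1.31). The part of these markers in the members' values was not tested, and in bulk RNA fewer cells of a type and less RNA per cell cannot be told apart.

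Other genes of the pathway were taken from lists of known function. The 15 electron carrier genes had median differences of 0.00, -0.06 and 0.02. Cytochrome c (Cycs) differed by -0.06, -0.02 and -0.04 and cytochrome c1 (Cyc1), of complex III, by -0.26, -0.24 and -0.21. Sqor, which passes electrons from sulphide to ubiquinone, was 5.95 in parental ESCs, 6.98 (homologous), 8.25 (heterologous), and 6.24 and 6.34 (co-injection). It passed 2-fold in the homologous and heterologous arrays, but every value except the heterologous one lies below the median of all values (7.49), on a dim probe set. Of the 13 complex I assembly factors, 0 passed 2-fold (medians -0.07, -0.11 and -0.09), and the lowest was Ndufaf4 at -0.65, -0.52 and -0.47. Of the 27 assembly factors of complexes II to V, 0 passed 2-fold (medians -0.17, -0.08 and -0.14), and Cox17, the copper chaperone of complex IV, differed by -0.53, -0.58 and -0.51.

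Of 16 TCA cycle genes, 0 passed 2-fold against parental ESCs (medians -0.02, -0.14 and -0.02). Suclg2, the GDP-forming subunit of succinyl-CoA ligase, was 9.99 in parental ESCs, 10.99 (homologous), 9.95 (heterologous), and 10.64 and 10.65 (co-injection). It was lower in the heterologous than in the homologous array by 1.04, with the heterologous array beside parental ESCs as in Ndufa9 and Cox4i1. Pdha1, the pyruvate dehydrogenase subunit on chromosome X, differed by -0.67, -0.64 and -0.59.

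The 16 regulators of mitochondrial biogenesis had medians of -0.22, -0.19 and -0.13 and 0 past 2-fold. Nrf1 was 9.75 against 9.49, 9.46, 9.55 and 9.50. Gabpa, an ETS factor of subunit genes, was 10.70 against 10.27, 10.19, 10.28 and 10.28. Tfam, which packages mitochondrial DNA, was 9.28 against 9.03, 8.89, 9.04 and 9.12. Each was lower in all 4 arrays. Yy1, on chromosome 12, was 11.57 against 11.38, 12.08, 11.52 and 11.53, high in the heterologous array alone.

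Among 12 regulators and alternative routes, Pdk1, the kinase that limits pyruvate entry into the TCA cycle, was 9.73 in parental ESCs, 11.34 (homologous), 10.35 (heterologous), and 10.97 and 10.96 (co-injection), and passed 2-fold in the homologous and co-injection comparisons. Egln3, a prolyl hydroxylase that acts on HIF, differed by 1.71, 0.73 and 0.74. Slc25a31, an adenine nucleotide carrier of germ cells, differed by -1.64, -1.37 and -1.51, lower in all 4 arrays. Atpif1, the inhibitor of complex V, differed by 0.11, 0.10 and 0.13, and Hif1a by -0.11, 0.06 and -0.06.

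**Figure D5:**
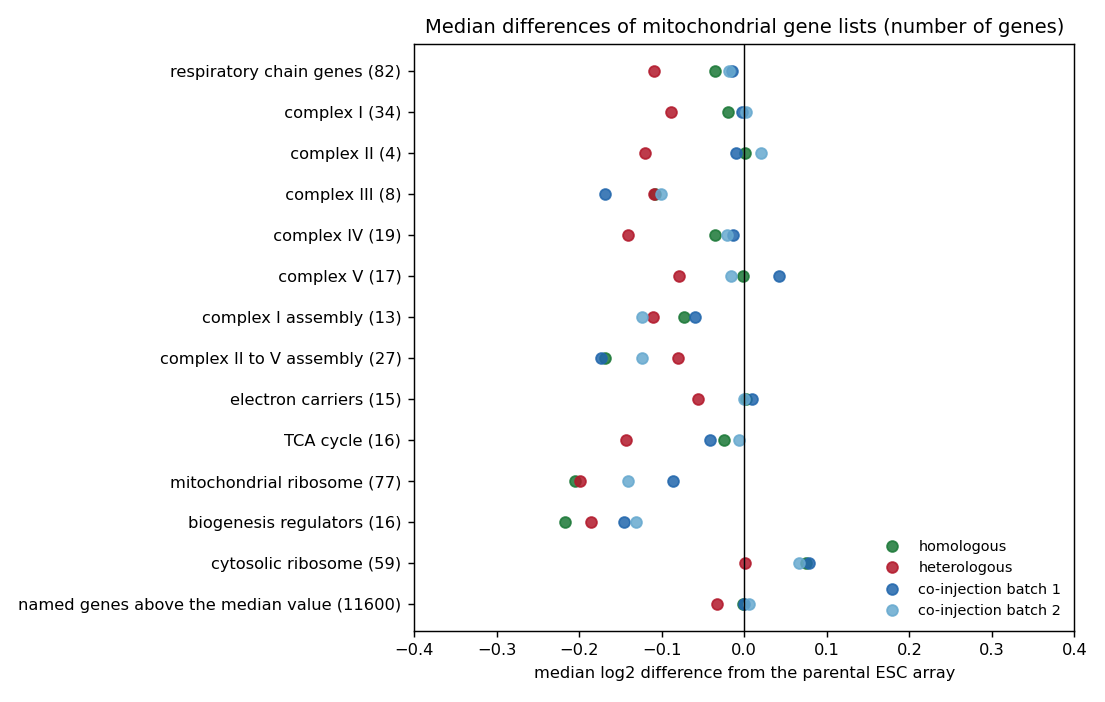
Median log2 difference from the parental ESC array (x axis) for each gene list, with the number of genes in parentheses, in each of the 4 ESC-like arrays. The medians of all respiratory chain genes, complexes III and IV, the assembly factors, the TCA cycle, the biogenesis regulators and the mitochondrial ribosome lie below 0 in all 4 arrays, and the cytosolic ribosome lies at or above 0.

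Promoter windows from 250 bases before to 50 bases after the start were found for 67 of 82 members, and none for Ndufa4l2, Cox4i1, Uqcrq and Atp5mpl. Motifs were searched on both strands. The NRF1 motif GCATGCGC was in 10 members (14.9%), including Ndufa11 and Atp5k, against 3.05% of genes with a window and 3.94% of protein-coding ones. On the same scale the ETS motif CCGGAAG was in 17 (25.4%, against 9.93% and 12.9%), the YY1 motif AAGATGGC was in 10 (14.9%, against 3.19% and 3.57%), and the HIF motif (ACGTG or GCGTG) was in 44 (65.7%, against 46.7% and 52.3%). A gene with several windows was counted when any of them held the motif. Ndufa11, with the NRF1 motif, and Ndufa1 and Uqcr10, without it, were all lower in every ESC-like array. So was Atp5k (9.58 in parental ESCs against 9.33, 9.30, 9.43 and 9.34). The first 3 were picked for their low values, and Atp5k after its values were seen. Among the other members with the NRF1 motif, Ndufa8, Uqcr11 and Uqcrc1 were lower in every ESC-like array. Atp5g2, Atp5l, Cox6a1, Ndufa6 and Sdhb, which also have it, were not. A link between motif and difference was not tested.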

How the data were processed

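RNA of 5 cell populations was profiled on Affymetrix GeneChip Mouse Gene 1.0 ST arrays. Per the methods, the authors read intensities in GCOS, used RMA and quantile normalization, and deposited log2 values for 35556 probe sets per array; the software versions and the build were not given in the sources used here. Array medians lay between 7.48 and 7.54, and the number of arrays limits the precision. RMA gives some probe sets equal values on several arrays (17 members, 30.2% of named genes). No further normalization was applied.

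Of the probe sets, 21789 had exactly 1 gene symbol, 1621 several and 12146 none; 107 named a member alone, and 6 naming a member and another gene were left out. Chromosomes came from RefSeq (GRCm38.p6), matched by gene ID for 82 members. Differences past 2-fold were counted, as in the methods, without a test. limma 3.58.1 with all 5 arrays (R 4.3.3, 1 residual and 0.818 prior degrees of freedom) was an alternative, tested on simulated data. Other alternatives were folds of 1.5 and 3, dim members left out, ubiquitous subunits only, means over probe sets, cyclic loess, centring on all named genes, and leaving out each co-injection array; the unadjusted limma threshold and probe sets of the gene's own chromosome were added after seeing the data.

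Members, lists and the naming rule were chosen with earlier results of these data known. The rule named members past 2-fold, the 3 highest and 3 lowest per comparison, paralogues and Sdh genes. It also named the brightest members of each complex, the widest co-injection gaps and list extremes. Core subunits of complex I other than Ndufs7 were chosen after their values were seen. So were Cox5a, Ndufa13, Ndufb7, Ndufb11, Atp5k and the regulators described without being extremes. Ndufv3, Uqcr11, Uqcrq, Uqcrfs1, Uqcrc1, Uqcrh and Atp5a1 also fell outside the rule. Scanner files were not used here, so background correction and slide were not varied. Python 3.11.15, numpy 2.4.6, pandas 2.3.3 and matplotlib 3.10.9 were used.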

Additional observations from a re-analysis of the deposited data

Results flagged for a closer look

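Ndufa4l2 lay above parental ESCs in the homologous array (log2 difference 0.76) and below them in the heterologous array (-0.76), opposite directions under the same contrast. For the heterologous against the homologous array, limma gave an adjusted p of 0.194 (unadjusted 0.0011), which does not pass the threshold. With 1 array in each of these conditions, that p takes its error from the co-injection pair, and the spread within the conditions themselves was not tested. The co-injection arrays differed from parental ESCs by 0.04 and 0.08.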

How the results depend on the processing

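The direction of the member median against parental ESCs was the same under every alternative run: between -0.041 and -0.0249 after homologous injection (-0.0352 as reported), between -0.1128 and -0.0697 after heterologous injection (-0.1098) and between -0.0527 and -0.0076 after co-injection (-0.0147). The following medians moved by more than the spread of the co-injection arrays. Without dim members they were -0.0295, -0.1066 and -0.0076 in these 3 comparisons. With ubiquitous subunits only they were -0.0410 and -0.1066 in the homologous and heterologous comparisons, and -0.0449 for heterologous against homologous (-0.0479 as reported). With the mean of a gene's probe sets they were -0.0410, -0.1066, -0.0225 and, for heterologous against homologous, -0.0440. With cyclic loess they were -0.0791 (heterologous), -0.0267 (co-injection), -0.0160 (heterologous against homologous) and 0.0282 (co-injection against heterologous, 0.0623 as reported). After subtracting the median of all named genes they were -0.0249, -0.0697, -0.0527, -0.0387, -0.0086 and, for co-injection against homologous (0.0398 as reported), -0.0008, so the last 2 changed sign. With probe sets of the gene's own chromosome they were -0.1128 (heterologous) and -0.0219 (co-injection). Leaving out either co-injection array gave medians between -0.0180 and -0.0147 for co-injection against parental ESCs.

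At 1.5-fold, 3, 5, 2, 2, 2 and 1 members passed in the homologous, heterologous, co-injection, heterologous against homologous, co-injection against heterologous and co-injection against homologous comparisons. limma called 0 members and 0 probe sets at an adjusted p under 0.05 in every comparison, where heterologous against homologous had 1 by the fold rule (0 at 3-fold), and 17, 21, 17, 15, 19 and 7 members at an unadjusted p under 0.05. These rest on 1 residual degree of freedom, and a lack of calls does not show that values did not differ. The share of all named genes under the same unadjusted threshold was not set beside the unadjusted counts. Those counts therefore cannot show whether members passed more often than other genes. Of the values set against alternatives, 14 counts of members moved and 40 did not. Of the complex medians, 9 of complex IV, 4 of complex I, 2 of complex II, 1 of complex V and 0 of complex III moved. In the same order, 1, 6, 8, 9 and 10 did not. Each complex was judged against the spread of its own 2 co-injection medians. With 1 co-injection array left out these were -0.1003 and -0.1681 for complex III, and -0.0211 and -0.014 for complex IV. The cut-offs were therefore unlike, and these counts do not rank the complexes by stability. With cyclic loess the heterologous against homologous median of complex I was 0.0253 (-0.0072 as reported). No paired analysis was possible because the parental, homologous and heterologous conditions had 1 array each.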

Other observations

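The 77 genes for mitochondrial ribosomal proteins, which make the subunits encoded in mitochondrial DNA, had median differences from parental ESCs of -0.20 (homologous), -0.20 (heterologous) and -0.11 (co-injection), and 0 of them passed 2-fold. Below parental ESCs were 61 in the homologous, 66 in the heterologous and 57 in the co-injection comparison. Of the 19938 named genes, 10457, 11562 and 7854 lay below parental ESCs in these comparisons. The lowest after homologous injection was Mrpl20 (-0.54) and the highest Mrpl23 (0.66). Mrps6 was high in the heterologous array alone (10.53, against 10.02 in parental ESCs, 9.82 in the homologous array, and 10.15 and 10.12 after co-injection).

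The 59 genes for cytosolic ribosomal proteins had medians of 0.07, 0.00 and 0.07. Rpl39l, a paralogue of Rpl39 known from testis, was 9.17 against 7.26 (homologous), 7.26 (heterologous), 7.15 and 7.26 (co-injection), more than 2-fold lower in each. Rpl10l, another testis paralogue, differed by -0.68, -1.25 and -0.68.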
